A study of Homo sapiens with 34 samples.

Results

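Collagen genes were followed here across CUT&RUN region lists for OGG1, SMARCA1 and Orc6. They were taken as the protein-coding genes whose symbol is COL, a number, A and a number, which gave 44 of the 19970 protein-coding genes on chromosomes 1 to 22 and X. CUT&RUN, in which a nuclease tethered by an antibody cuts out the DNA next to its target, was run on U2OS, a human osteosarcoma line, released for 3 h from a double thymidine block. OGG1 is the glycosylase that removes 8-oxoguanine, SMARCA1 is an ATPase of the ISWI chromatin remodellers, and Orc6 is a subunit of the origin recognition complex. The groups were OGG1 siOrc6 H2O2, OGG1 siOrc6 NT, OGG1 siGl3 H2O2, OGG1 siGl3 NT, the same 4 conditions for SMARCA1, and Orc6 siGl3 H2O2 and Orc6 siGl3 NT, each with n = 2 libraries. siOrc6 is an siRNA against Orc6 and siGl3 the control siRNA, both given for 72 h, H2O2 is 5 mM hydrogen peroxide for 30 min, and NT is non-treated. All groups share the cell line, the synchrony and an siRNA, and the 20 lists used come from 34 samples, of which the other 14 were not analysed here.

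Collagens are triple-helical proteins of the extracellular matrix, and their genes encode single chains that assemble into trimers. Fibril-forming chains such as those of types I, II, III and V make the banded fibres of bone, skin and cartilage, fibril-associated chains (FACIT) decorate those fibres, and type IV chains build the sheet of basement membranes. Type I collagen is the main protein of bone matrix, and osteoblasts, the cell type that osteosarcoma resembles, are known for making it. Several type IV genes lie head to head, so that one start region serves a pair of genes.

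Each list gives the regions called in 1 library, with no read counts, so depth is unknown and no interval could be set on a gene's value. A gene was called occupied at an end when a region overlapped, by at least 1 bp, the window reaching 1 kb to either side of its start or of its other end. The gene body, the span less 1 kb at each end, was counted apart as the percent of its bases covered by regions. Lists held 6992 to 132408 regions and covered 31.8 to 825 Mb. OGG1 lists after H2O2 had 73301 to 132408 regions, against 17813 to 33435 in NT, and SMARCA1 lists after H2O2 had 35381 to 69927, against 6992 to 14791 in NT. The files of all 4 SMARCA1 siOrc6 libraries, and of no other library used, are marked as resubmitted, and for SMARCA1 the effect of siOrc6 and of resubmission cannot be told apart. A pair of libraries stood apart. SMARCA1 siGl3 NT replicate 1 reached the ends of 7.88% of all genes, against 21.7% in replicate 2, and OGG1 siOrc6 NT replicate 2 had the longest of the NT OGG1 lists but the fewest gene ends, 48.5% of all genes. Nothing in the labels says that replicates came from separate cultures, so p-values measure the spread between these libraries, which may be technical. No expression was measured, so neither the knockdown nor the cell type could be checked from RNA.

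Occupancy differed widely between collagen genes. COL7A1, COL8A1 and COL12A1 were occupied at an end in all 20 lists, COL6A5, COL11A2, COL4A5 and COL4A6 in none, and the other 37 in some. Being in all 20 lists held for 6.82% of the collagen genes and 4.88% of all genes, and being in none for 9.09% and 12.4%. The median collagen gene was occupied in 11 libraries, and the median of all genes in 12. With at least 1 library as the limit, OGG1 was found at 39 collagen genes, SMARCA1 at 33 and Orc6 at 30, and 26 were occupied at least once by all 3 proteins. All OGG1 libraries shared 16 collagen genes, all SMARCA1 libraries 4 and all Orc6 libraries 15, and for all genes the matching shares were 35.5%, 5.32% and 33.9%.

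**Figure D1:**
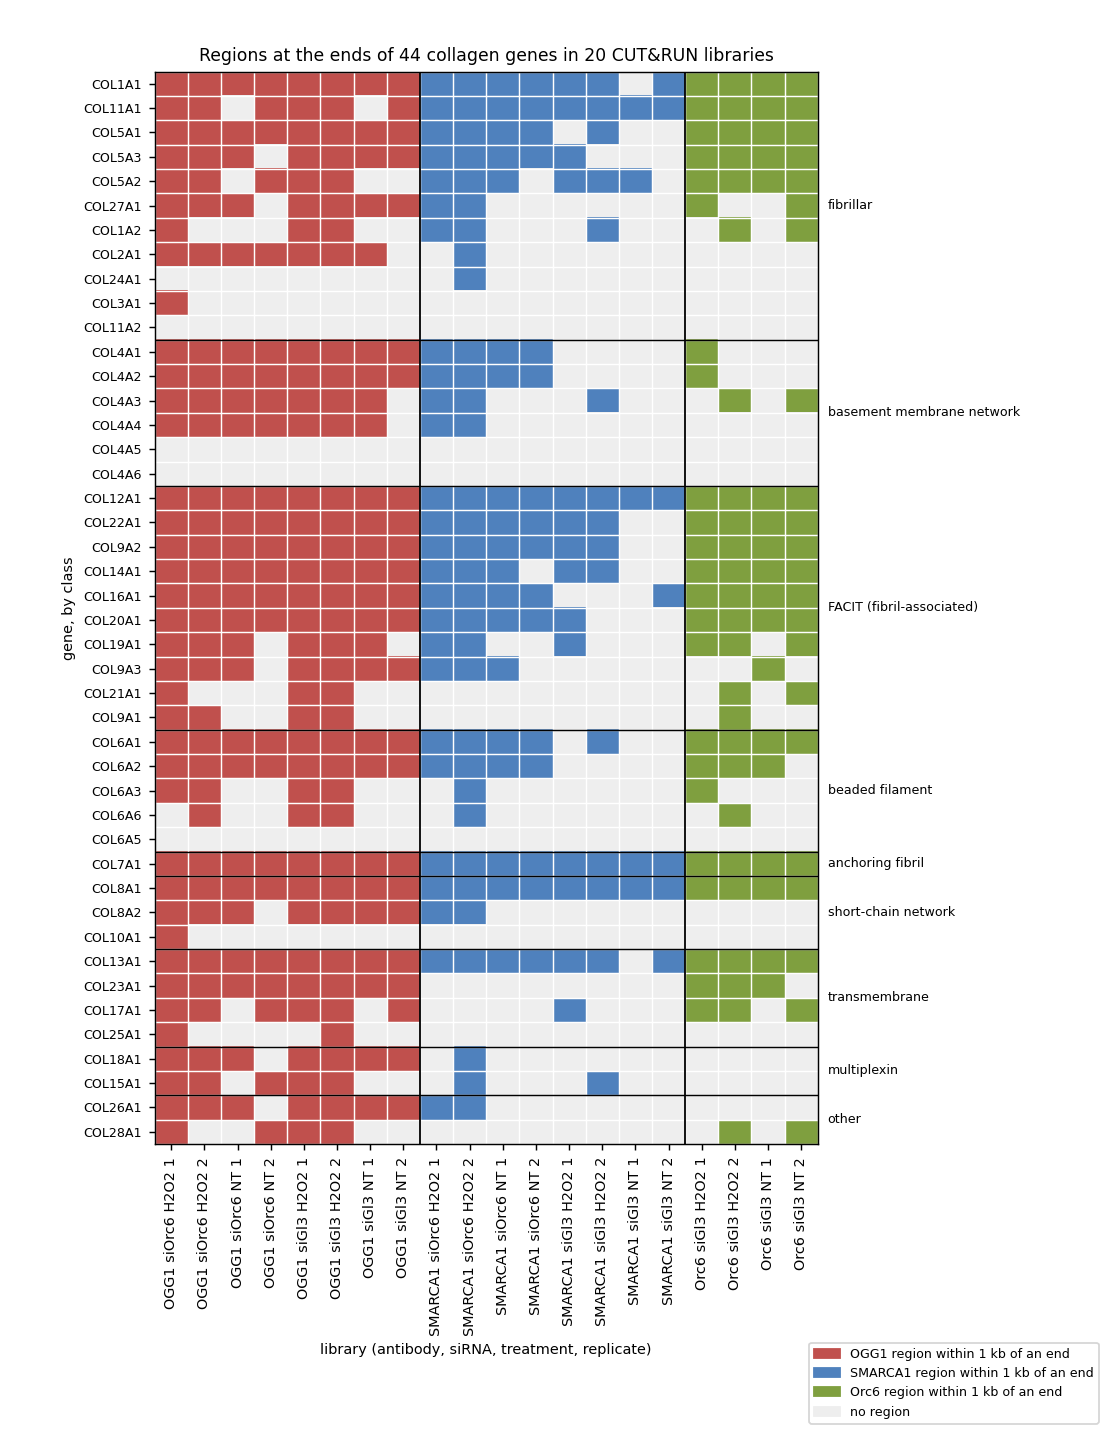
Each row is 1 of 44 collagen genes, grouped by class and ordered within a class by the number of occupied libraries, and each column is 1 of 20 libraries. A coloured cell marks a region within 1 kb of either gene end. COL7A1, COL8A1 and COL12A1 are filled across, COL4A5, COL4A6, COL11A2 and COL6A5 are empty, and the SMARCA1 siGl3 NT columns hold 5 and 7 filled cells.

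COL12A1 encodes a FACIT chain, COL7A1 the chain of the anchoring fibrils that hold the epidermis to the dermis, and COL8A1 a short-chain collagen that forms networks. The 250 bases upstream of the starts of COL12A1 and COL7A1 are shown as examples of genes occupied throughout, with the start of COL4A5, a basement membrane gene occupied in no library, for contrast. Capitals here and below mark 3 motifs searched on both strands, namely the GC box, spelt GGGCGG and read as CCGCCC on the other strand, the CCAAT box, whose other strand reads ATTGG, and the TATA box, spelt TATAAA and read as TTTATA on the other strand. Overlapping matches were counted apart.
COL12A1: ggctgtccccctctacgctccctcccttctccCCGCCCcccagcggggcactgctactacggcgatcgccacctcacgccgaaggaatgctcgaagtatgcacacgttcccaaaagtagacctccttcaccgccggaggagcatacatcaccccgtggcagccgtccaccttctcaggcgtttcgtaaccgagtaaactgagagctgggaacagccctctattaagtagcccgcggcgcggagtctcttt
COL7A1: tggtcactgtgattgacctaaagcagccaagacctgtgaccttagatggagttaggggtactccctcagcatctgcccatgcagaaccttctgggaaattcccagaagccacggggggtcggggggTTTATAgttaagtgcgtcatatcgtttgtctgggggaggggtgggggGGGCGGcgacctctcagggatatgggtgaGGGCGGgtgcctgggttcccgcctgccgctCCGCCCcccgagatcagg
COL4A5: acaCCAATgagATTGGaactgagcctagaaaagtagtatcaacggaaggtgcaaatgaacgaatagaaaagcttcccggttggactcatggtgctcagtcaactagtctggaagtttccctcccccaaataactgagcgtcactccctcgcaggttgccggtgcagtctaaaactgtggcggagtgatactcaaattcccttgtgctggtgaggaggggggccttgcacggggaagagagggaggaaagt
The sequences come from RefSeq, build GRCh38.p14, and lie at chr6:75206054-75206303 on the minus strand, chr3:48595330-48595579 on the minus strand and chrX:108439588-108439837 on the plus strand. They are printed 5′ to 3′ along the gene. The COL12A1 stretch held 1 GC box, that of COL7A1 held 3 GC boxes and 1 TATA box, and that of COL4A5 held 2 CCAAT boxes. Of 15811 promoters in the table, 55.8% held a GC box, 34.4% a CCAAT box and 9.36% a TATA box in these 250 bases. Of the 32 collagen genes with an entry, 53.1% held a GC box, 25% a CCAAT box and 15.6% a TATA box. A match is a description of the letters and not a binding site.

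COL12A1, at chr6:75084326-75206053, carried its regions at the start, whose window was occupied in 8 of 8 OGG1, 8 of 8 SMARCA1 and 4 of 4 Orc6 libraries. Its far end was occupied in 1, 0 and 0 of them. Ranked by total signal within its own list, the best end region stood at a median percentile of 87.3 in OGG1, 68.8 in SMARCA1 and 85.8 in Orc6. COL7A1, at chr3:48564073-48595329, was different, with regions at its far end in 8 OGG1, 8 SMARCA1 and 4 Orc6 libraries and at its start in 8, 4 and 2. Its windows also take in part of the windows of PFKFB4 and UCN2, so a region there cannot be given to COL7A1 alone. COL8A1, at chr3:99638594-99799217, has no strand in the table, and its best end region stood at a median percentile of 90.5 in OGG1, 68.5 in SMARCA1 and 96.7 in Orc6.

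The genes without end regions differed in their surroundings. COL4A5 and COL4A6, whose starts lie 379 bp apart on chromosome X, had no region in the body in any library, and the nearest region in any list lay 37.8 kb from COL4A5 and 63.0 kb from COL4A6. Chromosome X as a whole was sparse, since OGG1 lists reached the ends of a median of 28.01% of its genes, against 68.6% of all genes, SMARCA1 lists 11.97% against 42.7%, and Orc6 lists 17.0% against 54.2%. COL11A2, a fibrillar chain of cartilage at chr6:33162694-33193519, had no region nearer than 286.5 kb. COL6A5, at chr3:130345672-130484846, had body regions in 3 libraries although its ends had none.

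By class, FACIT genes were occupied most often among the classes of more than 1 gene. The 10 FACIT genes had a median of 17 libraries, the 11 fibrillar genes 11, the 6 type IV genes and the 4 transmembrane genes 10.5, the 3 short-chain network genes 9, the 5 type VI (beaded filament) genes 6, and the 2 multiplexins and the 2 other genes 7.5 each. COL9A2, COL22A1, COL20A1, COL16A1 and COL14A1, all FACIT genes, had 17 or 18 libraries, whereas COL9A1 and COL21A1 had 5 each. Among fibrillar genes COL1A1 had 19 and COL11A1 18, whereas COL3A1 and COL24A1 had 1 each. A class is a short list chosen with earlier results known, and no test was made over it.

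The genes for the chains of type I collagen, the main bone collagen, differed from each other. COL1A1, at chr17:50184101-50201631, was occupied at an end in 8 of 8 OGG1, 7 of 8 SMARCA1 and 4 of 4 Orc6 libraries, missing SMARCA1 siGl3 NT replicate 1. Its best end region stood at a median percentile of 98.8 in OGG1, 99.0 in SMARCA1 and 96.1 in Orc6. COL1A2, at chr7:94394895-94431227, was occupied in 3 of 8 OGG1, 3 of 8 SMARCA1 and 2 of 4 Orc6 libraries. The body of COL1A1 was covered to between 81.4% and 100% in 7 OGG1 libraries and to 17.8% in OGG1 siOrc6 NT replicate 2, while that of COL1A2 reached at most 19.2% in OGG1, 1.03% in SMARCA1 and 20.3% in Orc6.

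Collagen genes are long, with a median span of 144.7 kb, against 24.19 kb for all genes, and gene body cover went with length. Under 100 kb, the median of the 18 genes' mean body cover was 63.9% for OGG1, 13.5% for SMARCA1 and 11.3% for Orc6. At 100 to 200 kb it was 23.1%, 1.88% and 7.19% over 12 genes, and at 200 kb or more it was 10.5%, 1.32% and 6.70% over 14 genes. All genes of the same length bins had 37.6%, 16.9% and 5.73% for OGG1. They had 3.34%, 1.33% and 0.633% for SMARCA1, and 10.7%, 8.14% and 3.29% for Orc6. Across the 44 genes, Spearman's rho of length and body cover was -0.50 for OGG1, -0.49 for SMARCA1 and -0.13 for Orc6, a description over genes that share libraries and are not independent.

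**Figure D2:**
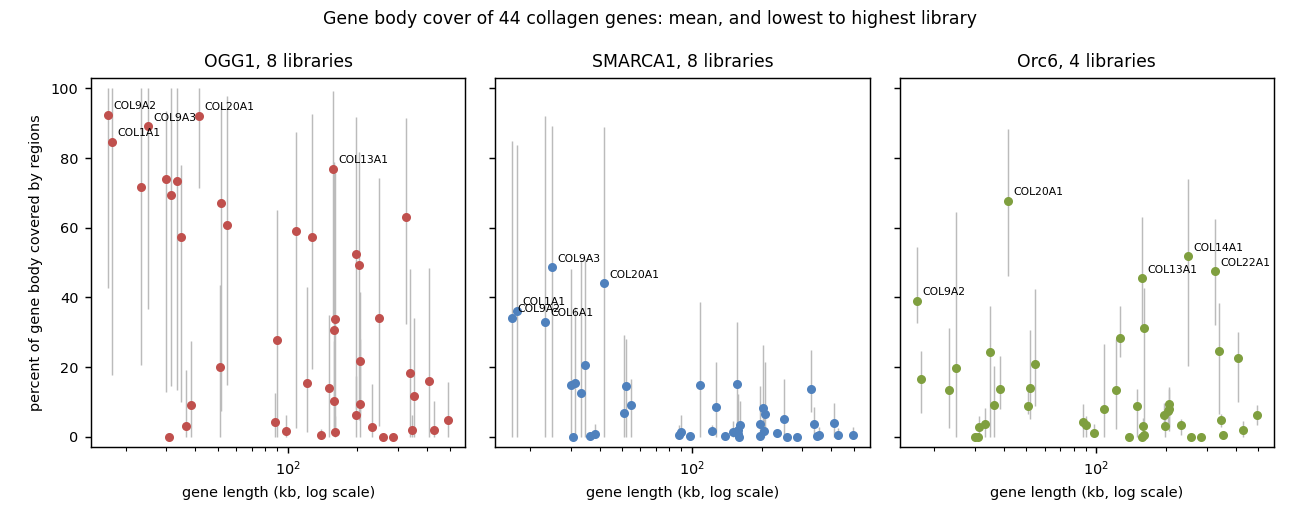
The percent of the gene body covered by regions is plotted against gene length (kb, log scale) for 44 collagen genes, with 1 panel per antibody. Points are means over 8 OGG1, 8 SMARCA1 or 4 Orc6 libraries, and bars run from the lowest to the highest library. The 5 genes of highest mean cover are named, and short genes such as COL9A2 and COL20A1 stand at the top for OGG1.

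The highest mean body cover in OGG1 libraries was at COL9A2 (92.5%), COL20A1 (92.2%), COL9A3 (89.2%), COL1A1 (84.8%) and COL13A1 (76.9%). In SMARCA1 libraries it was at COL9A3 (48.7%), COL20A1 (44.1%), COL1A1 (36.1%), COL9A2 (34.2%) and COL6A1 (33.0%), each of which had a library at 0. In Orc6 libraries it was at COL20A1 (67.8%), COL14A1 (51.9%), COL22A1 (47.5%), COL13A1 (45.6%) and COL9A2 (39.1%). The FACIT genes COL9A2, at chr1:40300489-40317286, and COL20A1, at chr20:63293186-63334806, were in all 3 sets. COL20A1 regions were broad, with a median width at the ends of 105289 bp in OGG1, 19533 bp in SMARCA1 and 17196 bp in Orc6. COL22A1 and COL14A1, both on chromosome 8, had high Orc6 cover at lengths of 325.8 and 249.1 kb.

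Strand was known for 32 collagen genes, and in those the start was occupied more often than the far end. The start window held a region in a median of 62.5% of them in OGG1 libraries, 28.1% in SMARCA1 and 39.1% in Orc6. The far window held one in 40.6%, 4.69% and 18.8%. The start was ahead in 8 of 8 OGG1, 8 of 8 SMARCA1 and 4 of 4 Orc6 libraries, as it was for all genes with a known strand in the same libraries. The median share of all such genes with a region at the start was 65.9% in OGG1, 40.6% in SMARCA1 and 50.0% in Orc6.

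**Figure D3:**
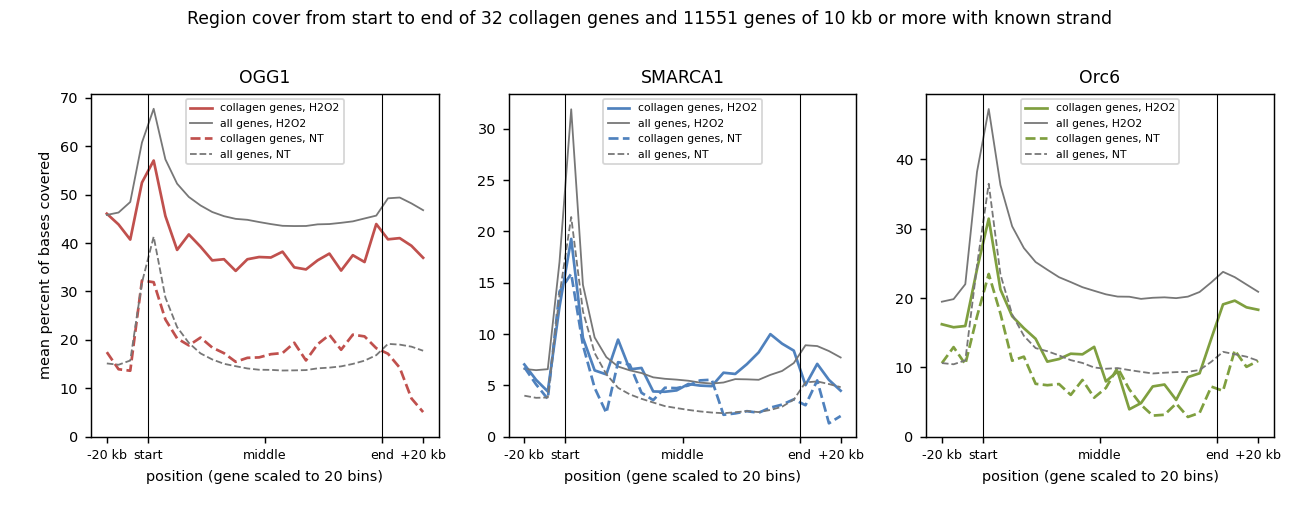
The mean percent of bases covered is plotted along 32 collagen genes (coloured) and 11551 genes of 10 kb or more (grey), each scaled to 20 bins with 20 kb to either side, for OGG1, SMARCA1 and Orc6. Solid lines are H2O2 and broken lines NT libraries. The lines of collagen genes peak in the first bin of the gene, or for OGG1 NT in the bin before it, and the first bin of collagen genes stands at 57.0% after H2O2 and 31.9% in NT for OGG1.

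In the first of 20 bins along the gene, SMARCA1 regions covered 19.3% of collagen gene bases after H2O2 and 15.9% in NT, against 31.9% and 21.4% for all genes. In the middle of the gene SMARCA1 covered 5.40% of collagen gene bases after H2O2 and 4.49% in NT, against 5.65% and 2.91% for all genes. For OGG1 the middle of collagen genes was covered to 36.2% after H2O2 and 17.2% in NT, against 44.4% and 14.3% for all genes. For Orc6 it was covered to 9.24% after H2O2 and 6.65% in NT, against 21.3% and 10.4% for all genes. Start occupancy was also set beside the base composition of the upstream stretch. The 17 collagen genes with a CpG ratio (observed over expected) of 0.6 or more in the 250 upstream bases had a median of 9 libraries at the start, and the 15 below it 6, against 14 and 5 for all promoters. Spearman's rho of CpG ratio and libraries at the start was 0.14 over the 32 collagen genes and 0.43 over 15811 genes, and that of GC content was 0.38 and 0.36, again as descriptions with no test of a difference. By antibody, the start was occupied in 71.3% of gene and library pairs at the higher CpG ratio and 51.7% at the lower for OGG1, in 36.8% and 24.2% for SMARCA1, and in 30.9% and 43.3%, the other way round, for Orc6.

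H2O2 was set against no treatment to ask whether oxidative damage changes where these proteins sit. OGG1 libraries had 38 and 33 collagen genes occupied at an end in siOrc6 H2O2 and 36 and 37 in siGl3 H2O2, against 26 and 24 in siOrc6 NT and 26 and 24 in siGl3 NT. Every H2O2 library stood above every NT library, with means of 36 ± 2.16 and 25 ± 1.15 (SD, n = 4 each). The gene bodies, 6.87 Mb in all, were covered to 30.4% ± 4.85 after H2O2 and 12.8% ± 2.23 in NT (SD, n = 4 each). All genes went the same way, at 80.3% ± 1.71 after H2O2 and 53.6% ± 4.55 in NT at their ends. Of the collagen genes, 23 had more H2O2 than NT libraries and 0 had fewer, or 52.3% with more, beside 49.8% of all genes. Without OGG1 siOrc6 NT replicate 2 the difference was 10.7 genes in place of 11. List length also differed between H2O2 and NT. With each list held to its 6992 regions of highest total signal, the mean was 14.5 collagen genes (33.0%) after H2O2 and 15 (34.1%) in NT, while all genes stood at 32.8% after H2O2 and 27.6% in NT.

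**Figure D4:**
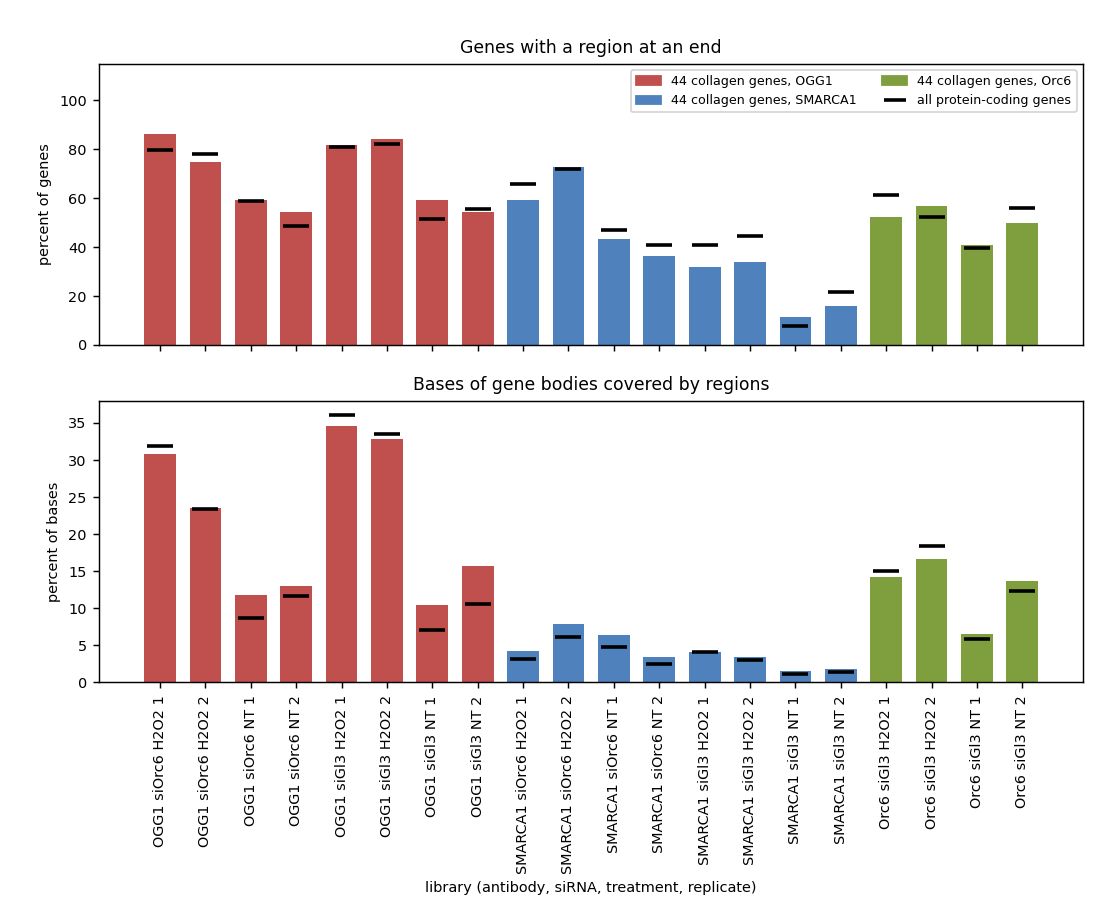
The upper panel gives the percent of 44 collagen genes with a region at an end in each of 20 libraries, and the lower panel the percent of their body bases covered by regions. Bars are coloured by antibody and black marks give the same value for all 19970 protein-coding genes. OGG1 H2O2 libraries stand at 75% to 86.4% in the upper panel and OGG1 NT libraries at 54.5% to 59.1%, with the marks of all genes close by.

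COL6A3 and COL9A1 passed the test for OGG1 with H2O2. Each was occupied at an end in 4 of 4 H2O2 libraries and 0 of 4 NT libraries (two-sided Fisher's exact test, p = 0.0286, adjusted p = 0.0345 with Benjamini-Hochberg over 1777 genes that could pass). That is 4.55% of the collagen genes, beside 7.37% of all genes that passed in this direction. The groups do not overlap at either gene, but the same holds for 1472 genes. When libraries were blocked by replicate number, the exact sign test over 4 pairs could not go below p = 0.125, and neither gene passed. With lists of equal length or of equal covered bases 0 collagen genes passed (Fisher's exact test, smallest adjusted p = 0.224 and 0.613).

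COL6A3, at chr2:237324018-237414164 on the minus strand, encodes a chain of type VI collagen, the beaded filaments around cells. COL9A1, at chr6:70215061-70303084 on the minus strand, encodes a chain of type IX collagen of cartilage fibrils. Their 250 upstream bases, at chr2:237414165-237414414 and chr6:70303085-70303334 (RefSeq, GRCh38.p14, minus strand), are shown because these collagen genes had OGG1 regions at the start in every H2O2 and no NT library.
COL6A3: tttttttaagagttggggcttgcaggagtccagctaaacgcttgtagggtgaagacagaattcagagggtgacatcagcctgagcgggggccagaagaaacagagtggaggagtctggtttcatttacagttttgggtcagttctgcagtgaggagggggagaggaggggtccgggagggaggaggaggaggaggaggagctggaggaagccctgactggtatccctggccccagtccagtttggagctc
COL9A1: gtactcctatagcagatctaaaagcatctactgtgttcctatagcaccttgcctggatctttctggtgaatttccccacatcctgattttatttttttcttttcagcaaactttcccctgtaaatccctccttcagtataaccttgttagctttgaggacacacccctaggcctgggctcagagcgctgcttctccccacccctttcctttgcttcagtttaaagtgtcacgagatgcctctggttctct
Neither stretch held any of the 3 motifs, so no letters are in capitals, and their CpG ratios were 0.185 and 0.169, below the 0.735 median of all promoters.

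The body of COL6A3 was covered to 56.0% and 35.0% in OGG1 siOrc6 H2O2 and 61.3% and 65.1% in siGl3 H2O2, against 0% and 5.97% in siOrc6 NT and 0% in both siGl3 NT libraries. The body of COL9A1 was covered to 8.44% and 1.75% in siOrc6 H2O2 and 12.4% and 10.9% in siGl3 H2O2, against 0% in all 4 NT libraries. The H2O2 libraries were higher at both genes with no overlap, but both were named for end regions with that pattern in the same lists. Their body values are thus not separate support, and the share of all genes with such a gap was not counted. The end regions of COL6A3 stood at percentiles of 58.8 to 97.4 within the H2O2 lists and those of COL9A1 at 26.7 to 91.0. For the body, COL6A6 and COL9A1 passed (4 of 4 against 0 of 4 libraries, Fisher's exact test, adjusted p = 0.0346), 2 of 44 beside 6.59% of all genes. COL6A6, another type VI gene, lies next to COL6A5, and its body was covered to at most 5.95% in OGG1.

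Of the other collagen genes with the largest differences for OGG1, COL6A6, COL21A1 and COL1A2 were occupied at an end in 3 of 4 H2O2 and 0 of 4 NT libraries, and COL5A2 and COL15A1 in 4 of 4 and 1 of 4. None of these passed (Fisher's exact test, unadjusted p = 0.143). For COL5A2 and COL15A1 the NT library with a region was siOrc6 NT replicate 2. Without it, 4 collagen genes passed (adjusted p = 0.0428 by Fisher's exact test), beside 11.4% of all genes. Without any 1 of the H2O2 libraries or without siGl3 NT replicate 1, 0 collagen genes and 0% of all genes passed, with smallest adjusted p-values of 0.0512 to 0.0662 in Fisher's exact test.

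SMARCA1 libraries also had more collagen genes after H2O2, with more spread. There were 26 and 32 occupied at an end in siOrc6 H2O2 and 14 and 15 in siGl3 H2O2, against 19 and 16 in siOrc6 NT and 5 and 7 in siGl3 NT. Within each siRNA the H2O2 libraries stood above NT, but siGl3 H2O2 lay below siOrc6 NT, so the pooled means of 21.75 ± 8.73 after H2O2 and 11.75 ± 6.80 in NT (SD, n = 4 each) overlap. Over the gene bodies SMARCA1 covered 4.93% ± 2.05 after H2O2 and 3.30% ± 2.28 in NT. That difference is smaller than the spread, and in siOrc6 replicate 1 the H2O2 library was the lower one, at 4.24% against 6.46% in NT. Ends of all genes were at 55.8% ± 15.48 after H2O2 and 29.3% ± 17.9 in NT. Over the lists of 6992 regions the means were 9 collagen genes (20.5%) after H2O2 and 10.25 (23.3%) in NT, while all genes stood at 22.4% after H2O2 and 19.5% in NT. Without SMARCA1 siGl3 NT replicate 1, the H2O2 minus NT difference with whole lists was 7.75 genes in place of 10. More H2O2 than NT libraries were counted at 25 collagen genes and fewer at 1, COL16A1, or 56.8% with more beside 62.2% of all genes. No collagen gene had the all-or-none pattern, with 4 libraries of an arm occupied against 0, beside 2.55% of all genes for H2O2 and 0.025% for NT, and 0 passed (Fisher's exact test, smallest adjusted p = 0.108, with 0 collagen genes at an unadjusted p under 0.05).

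The largest differences for SMARCA1 with H2O2 were at COL4A3, COL19A1 and COL1A2, in 3 of 4 H2O2 and 0 of 4 NT libraries, and at COL14A1, in 4 of 4 and 1 of 4 (Fisher's exact test, unadjusted p = 0.143 for each). In the gene body, COL4A3 and COL6A3 had regions in 4 of 4 H2O2 and 0 of 4 NT libraries, which did not pass (Fisher's exact test, adjusted p = 0.119), 2 of 44 beside 2.57% of all genes. The reverse pattern was found at 0 collagen genes and 0.015% of all genes. COL4A3 body cover was 0.322% and 2.31% in siOrc6 H2O2 and 4.25% and 4.41% in siGl3 H2O2. At COL6A3 it was 1.22%, 6.35%, 2.74% and 1.26% in the same order of libraries. Both were at 0 in the NT libraries.

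Orc6 libraries had 23 and 25 collagen genes at ends after H2O2 and 18 and 22 in NT, and the body cover was 14.3% and 16.7% after H2O2 and 6.54% and 13.7% in NT. For collagen genes H2O2 was higher in both libraries of each measure. For ends of all genes the arms overlapped, at 61.2% and 52.5% after H2O2 and 39.6% and 55.9% in NT. Body cover of all genes separated as that of collagen genes did, at 15.03% and 18.4% after H2O2 and 5.86% and 12.4% in NT. A comparison of 2 against 2 cannot go below p = 0.333 in an exact test. The difference of 4 collagen genes at ends was 0.5 with lists of equal length and turned to -3.5 with lists of equal covered bases. The collagen body difference of 5.34 percentage points turned to -0.738 with equal covered bases. Of the collagen genes, 9 had more H2O2 libraries and 1, COL9A3, had fewer, or 20.5% with more beside 21.9% of all genes. No collagen gene was in 2 of 2 H2O2 and 0 of 2 NT libraries at its ends, beside 2.83% of all genes, and none had the reverse, beside 0.32%. In the body COL9A1 was, with 8.13% and 9.27% after H2O2 against 0% in both NT libraries, 1 of 44 beside 2.5% of all genes, and the reverse was found at 0 collagen genes and 0.351% of all genes. For Orc6 at COL9A1 the test gave the smallest p that this design allows (Fisher's exact test, p = 0.333) and was not passed.

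The siRNA against Orc6 was set against siGl3 to ask whether Orc6 affects where SMARCA1 and OGG1 sit. For SMARCA1, 26 collagen genes had more siOrc6 than siGl3 libraries and 1, COL17A1, had fewer, or 59.1% with more beside 61.8% of all genes. The means were 23.25 ± 7.18 collagen genes in siOrc6 and 10.25 ± 4.99 in siGl3 (SD, n = 4 each), and each of the 4 siOrc6 libraries, at 16 to 32, stood above each siGl3 library, at 5 to 15. All genes were at 56.4% ± 14.9 in siOrc6 and 28.7% ± 17.1 in siGl3. For all genes the arms overlapped, at 40.8% to 72.1% in siOrc6 and 7.88% to 44.6% in siGl3. Body cover of collagen genes was 5.53% ± 2.06 in siOrc6 and 2.70% ± 1.27 in siGl3. That of all genes was 4.14% ± 1.58 in siOrc6 and 2.40% ± 1.41 in siGl3. Among the lists of 6992 regions the means were 14.75 collagen genes (33.5%) in siOrc6 and 4.5 (10.2%) in siGl3. All genes went the same way in these lists, at 29.3% in siOrc6 and 12.6% in siGl3. Without SMARCA1 siGl3 NT replicate 1, the difference with whole lists was 11.25 genes in place of 13. These are the same 8 libraries as in the comparison of H2O2 with NT, and the mark of resubmission falls on all of the siOrc6 arm.

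COL4A1, COL4A2 and COL6A2 were occupied at an end in 4 of 4 siOrc6 and 0 of 4 siGl3 SMARCA1 libraries. They make up 6.82% of the collagen genes, beside 3.93% of all genes with that pattern. The 6.82% counts COL4A1 and COL4A2 apart, although the same region serves both. The test was not passed (Fisher's exact test, p = 0.0286, adjusted p = 0.0697), and 0 collagen genes passed. With lists of equal length COL20A1, COL6A1 and COL6A2 had the pattern, beside 1072 of all genes. With equal covered bases only COL20A1 had it, beside 159, and with windows of 2 kb COL4A1 and COL6A2, beside 622. COL4A1, COL4A2 and COL6A2 all kept it with windows of 500 bp and an overlap of 100 bp. Leaving out a library cannot break an all-or-none pattern, so that setting says nothing here. COL4A1, at chr13:110148963-110307157, and COL4A2, at chr13:110307284-110513209, encode the common chains of the basement membrane network and are read in opposite directions from a stretch of 126 bp, so that 1 region serves both and they count as 1 observation. COL6A2, at chr21:46098112-46132848, encodes a chain of type VI collagen. The stretch between the COL4A1 and COL4A2 starts, at chr13:110307158-110307283 on the plus strand, and the 250 bases upstream of COL6A2, at chr21:46097862-46098111 on the plus strand (RefSeq, GRCh38.p14), are shown because the siOrc6 regions span them.
COL4A1-COL4A2: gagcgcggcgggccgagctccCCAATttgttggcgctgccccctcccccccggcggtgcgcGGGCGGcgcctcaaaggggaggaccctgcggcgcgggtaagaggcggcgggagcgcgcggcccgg
COL6A2: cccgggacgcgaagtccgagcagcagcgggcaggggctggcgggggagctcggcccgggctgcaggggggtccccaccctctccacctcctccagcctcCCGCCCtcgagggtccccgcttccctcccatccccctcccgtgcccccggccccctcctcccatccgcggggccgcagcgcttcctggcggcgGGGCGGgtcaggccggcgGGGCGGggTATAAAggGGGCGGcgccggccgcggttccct
The shared stretch held 1 GC box and 1 CCAAT box at a GC content of 80.2%, and the COL6A2 stretch 4 GC boxes and 1 TATA box at 79.6%.

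**Figure D5:**
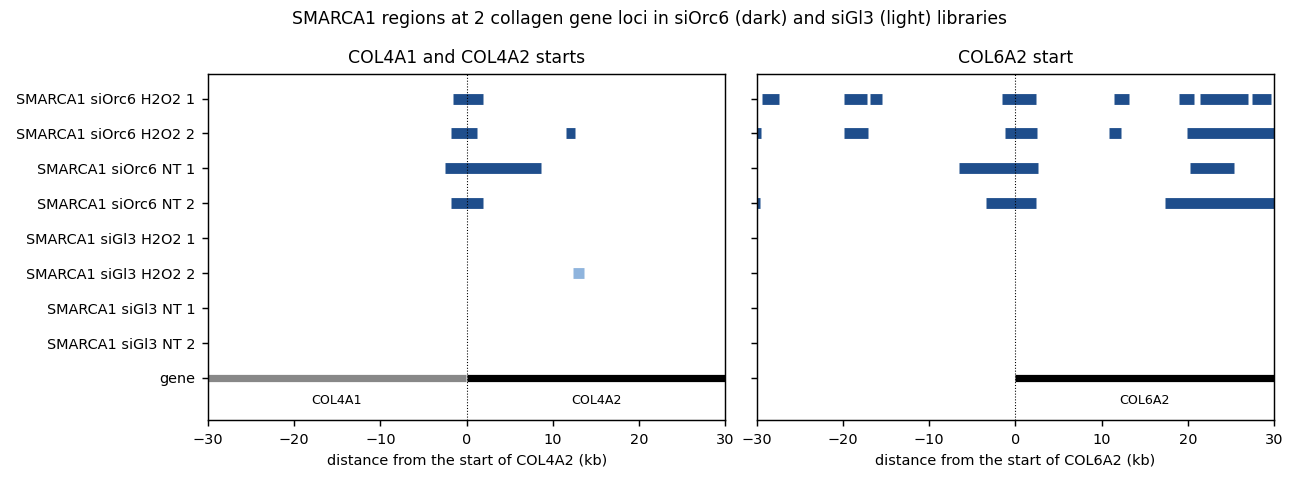
SMARCA1 regions are drawn as bars within 30 kb of the start of COL4A2 (left) and of COL6A2 (right), with 1 line per library, siOrc6 above siGl3, and genes at the bottom. Distance is in kb. The 4 siOrc6 libraries have a region across both starts, and the siGl3 libraries have 1 region in view, 12.4 to 13.6 kb inside COL4A2.

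At the COL4A1 and COL4A2 starts the region ran from -1.57 to 1.87 kb around the COL4A2 start in siOrc6 H2O2 replicate 1, from -1.87 to 1.15 kb in replicate 2, from -2.48 to 8.62 kb in siOrc6 NT replicate 1 and from -1.78 to 1.86 kb in NT replicate 2. By total signal these regions stood at percentiles 85.9, 84.0, 77.0 and 54.1 of their own lists. The regions thus lay in the upper part of each list and covered the stretch shown above. OGG1 libraries had a region at both starts in 8 of 8, and Orc6 libraries in 1 of 4, Orc6 siGl3 H2O2 replicate 1.

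The body of COL6A2 was covered by SMARCA1 regions to 42.6% and 50.5% in siOrc6 H2O2 and 20.4% and 51.0% in siOrc6 NT, against 0% in all 4 siGl3 libraries. The region at its start stood at percentiles 95.9, 96.2, 69.6 and 72.1 of the 4 siOrc6 lists. COL6A1, the neighbouring type VI gene at chr21:45981770-46005048, had body cover of 61.3% and 92.1% in siOrc6 H2O2 and 57.8% and 49.2% in siOrc6 NT, against 0% and 3.92% in siGl3 H2O2 and 0% in both siGl3 NT libraries. The siRNA arms do not overlap at either gene, but the share of all genes with such a gap in body cover was not counted. COL6A2 was named for its end regions in the same libraries, so its body values are not separate support. COL4A1 and COL6A2 had body regions in all siOrc6 and no siGl3 libraries (Fisher's exact test, adjusted p = 0.0774), 2 of 44 beside 3.86% of all genes, and 0 had the reverse, beside 0.12%. Of the rest, COL16A1, COL5A1, COL5A3, COL20A1 and COL6A1 were occupied at an end in 4 of 4 siOrc6 and 1 of 4 siGl3 libraries and COL9A3 in 3 of 4 and 0 of 4.

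The direction at single genes was not uniform in the body. SMARCA1 had body regions in more siOrc6 libraries at 21 collagen genes and in fewer at 10, or 22.7% with fewer beside 10.015% of all genes. COL28A1 had body regions in 1 of 4 siOrc6 and 4 of 4 siGl3 libraries and COL24A1 in 1 of 4 and 3 of 4. COL14A1, chosen after its values were seen, had SMARCA1 body cover of 1.12% and 2.29% in siOrc6 H2O2 and 0.484% and 0% in siOrc6 NT, against 16.7% and 16.0% in siGl3 H2O2 and 1.36% and 3.62% in siGl3 NT. The siGl3 H2O2 libraries were thus the high ones there. None of these passed.

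For OGG1, siOrc6 and siGl3 libraries had 30.25 ± 6.45 and 30.75 ± 6.70 collagen genes at ends (SD, n = 4 each) and body cover of 19.8% ± 8.996 and 23.4% ± 12.1. These SDs hold both treatments. Within pairs of the same treatment and number, siOrc6 minus siGl3 was 2 and -4 genes after H2O2 and 0 and 0 in NT, and in the body -3.79 and -9.33 percentage points after H2O2 and 1.41 and -2.63 in NT, so 3 of 4 pairs were lower in siOrc6 in the body. More siOrc6 libraries were counted at 7 collagen genes and fewer at 9, each by 1 library, or 15.9% and 20.5%, beside 15.4% and 20.2% of all genes. No collagen gene had the all-or-none pattern, beside 0% of all genes for siOrc6 and 0.00501% for siGl3, and 0 passed (Fisher's exact test, smallest adjusted p = 1, with 0 collagen genes at an unadjusted p under 0.05).

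With whole lists, OGG1 regions were found at more collagen genes than SMARCA1 regions, a mean difference of 13.75 genes that turned to -5.125 with lists of equal covered bases, where the body difference was 0.182 percentage points in place of 17.5. Over 8 libraries each, 24 to 38 collagen genes had an OGG1 region at an end, with a median of 29.5, against 5 to 32 and a median of 15.5 for SMARCA1. More OGG1 than SMARCA1 libraries were counted at 33 collagen genes and fewer at 3, COL11A1, COL5A2 and COL24A1, or 75% with more beside 75.8% of all genes. At an unadjusted p under 0.05 in Fisher's exact test, 8 collagen genes were higher for OGG1, or 18.2% beside 8.26% of all genes, and 0 passed after adjustment (smallest adjusted p = 0.107). They were COL23A1 in 8 and 0 libraries, COL2A1 and COL18A1 in 7 and 1, COL8A2, COL4A4, COL26A1 and COL27A1 in 7 and 2, and COL17A1 in 6 and 1.

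COL23A1, which encodes a transmembrane collagen at chr5:178237618-178590393, had the all-or-none pattern, beside 0.0401% of all genes with it. It lost the pattern with windows of 2 kb, with lists of equal length, with lists of equal covered bases and in the gene body. It kept the pattern with windows of 500 bp and an overlap of 100 bp, while leaving out a library could not break it. The OGG1 regions lay at its far end in 8 of 8 libraries and at its start in 1, and they stood at percentiles of 24.3 to 89.4 in their lists. Its body was covered to 4.76% and 14.6% in OGG1 siOrc6 H2O2, 23.3% and 34.2% in siGl3 H2O2, 0.621% and 0% in siOrc6 NT, and 2.01% and 14.4% in siGl3 NT, against 0% to 2.77% in SMARCA1 libraries. The OGG1 siGl3 H2O2 libraries were the highest, and the body values of the antibodies overlap. With the replicate number as a block, which pairs libraries of the same condition, COL23A1 (higher in 8 of 8 pairs), COL2A1 and COL18A1 (higher in 6 pairs and lower in 0 each) passed (exact sign test, adjusted p = 0.0441), beside 2.54% of all genes. Without OGG1 siOrc6 NT replicate 2, COL23A1 and COL18A1 passed (beside 1.37% of all genes), and without SMARCA1 siOrc6 H2O2 replicate 2 COL23A1, COL2A1 and COL18A1 did (beside 1.85%), in Fisher's exact test with smallest adjusted p-values of 0.0393 and 0.0334.

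COL2A1, the fibrillar chain of cartilage at chr12:47972967-48006212, was covered in its body to 61.8% and 88.2% in OGG1 siOrc6 H2O2, 92.3% and 100% in siGl3 H2O2, 87.9% and 13.3% in siOrc6 NT, and 58.1% and 85.4% in siGl3 NT. SMARCA1 covered it to 27.5% and 50.9% in siOrc6 H2O2, 5.37% and 5.06% in siGl3 H2O2, 11.1% and 0% in siOrc6 NT, and 0% in both siGl3 NT libraries. OGG1 was higher in each pair of the same condition and number, and its one low value was siOrc6 NT replicate 2. COL2A1 was named for its end regions in the same libraries, so its body values are not separate support. The share of all genes higher for OGG1 in each pair was not counted. Over all genes, body cover was 7.01% to 36.1% in OGG1 libraries and 1.09% to 6.07% in SMARCA1 libraries. COL18A1, whose chain yields endostatin, lies at chr21:45405165-45513720 and had OGG1 body cover of 2.59% to 87.6% and SMARCA1 body cover of 0% to 38.6%.

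The COL4A3 and COL4A4 genes, whose chains belong to the basement membrane of the kidney glomerulus, face each other across 135 bp at chr2:227164489-227164623. That stretch is shown on the plus strand (RefSeq, GRCh38.p14) because a region there counts for both genes.
COL4A4-COL4A3: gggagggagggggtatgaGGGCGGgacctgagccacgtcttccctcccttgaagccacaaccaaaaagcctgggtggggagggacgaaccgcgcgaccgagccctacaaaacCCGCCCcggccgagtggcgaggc
It held 2 GC boxes. OGG1 regions were found at both starts in 7 of 8 libraries, absent in siGl3 NT replicate 2, and SMARCA1 regions in 2 of 8, both siOrc6 H2O2. Orc6 regions were at neither start. COL4A1 and COL4A2 had SMARCA1 regions at the shared start in 4 libraries and COL4A5 and COL4A6 in 0, so the type IV pairs differed from each other.

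Genes that serve collagens were also counted, beside the median of 11 libraries of the collagen genes. The 17 genes of collagen folding and modification, such as the prolyl hydroxylase subunit P4HA1 and the chaperone SERPINH1, had a median of 19 libraries, with P4HA1 and CRTAP in all 20. The 16 genes of secretion, processing and crosslinking had a median of 18, with SPARC in all 20. The 10 collagen receptors had 17, with ITGA1, ITGA2 and ITGB1 in all 20 and DDR1, LAIR1 and GP6 in none, and the 6 collagen-degrading proteases 11. These genes are shorter, with median spans of 33.8, 48.4, 61.9 and 11.96 kb.

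Few of them had the all-or-none pattern. For OGG1 with H2O2 these were TMEM38B of the folding list and MIA3 of the secretion list, 1 of 17 and 1 of 16, beside 7.37% of all genes. For SMARCA1 with H2O2 MIA3 had it, for Orc6 with H2O2 ADAMTS14, and for SMARCA1 with siOrc6 BMP1, each 1 of 16, beside 2.55%, 2.83% and 3.93% of all genes. COLGALT1 of the folding list also had it for SMARCA1 with siOrc6, 1 of 17, and no receptor or protease gene had it in these 4 comparisons. Bone and mesenchyme genes ranged from ALPL in 6 libraries and RUNX2 in 7 to THY1 in 13, SP7 in 16 and VIM in 20, and of 5, THY1 and SP7 had SMARCA1 regions in 4 of 4 siOrc6 and 0 of 4 siGl3 libraries. Of the hepatocyte and T cell genes, ALB was in 0 libraries, CD3D in 2, CD3E in 6 and APOA1 in 10, and CD3E had the pattern for OGG1 with H2O2.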

How the data were processed

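CUT&RUN region lists of 20 libraries, 10 groups of 2 by antibody, siRNA and treatment, were analysed. The tools were matplotlib 3.10.9, pandas 2.3.3, scipy 1.17.1 and numpy 2.4.6 under Python 3.11.15. The authors deposited 1 list of called regions per library, with the total and maximum signal of each region. Per the submitters' processing notes, the build was hg38 and the tools included SEACR 1.1, Bowtie2, deepTools, DESeq2, DiffBind, bedtools and SAMtools. No source used here gives the step that each served or the scaling of the signal. The signal was used only to rank regions within a list and to shorten lists. Lists that differ in depth or threshold differ in length, which moves every count of occupied genes, and the lists hold no read counts.

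Gene positions came from a RefSeq gene table, and promoter sequences and strand from RefSeq GRCh38.p14, with an entry for 32 of 44 collagen genes. Ends were widened by 1 kb and an overlap of 1 bp sufficed. Each gene was tested with a two-sided Fisher's exact test on libraries, with Benjamini-Hochberg adjustment at 0.05 over the genes whose totals could reach an unadjusted p of 0.05. The smallest p that 4 libraries against 4 allow is 0.0286, and the smallest for 8 against 8 is 0.000155. Per the labels a replicate number marks a batch, so numbers were taken to pair libraries, and the replicate block was an exact sign test over pairs. In simulated data for each of 5 comparisons, 200 of 19970 genes were set as all-or-none, and 100% of them were counted as such. That outcome was fixed by their construction. It checks the counting only, and whether such genes pass Fisher's exact test was not measured by it.

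The members and gene lists were chosen with earlier results of these data known. Genes were named when all-or-none in a comparison, when passing for OGG1 against SMARCA1, when occupied in all or none of the lists, when in a type IV pair or type I or VI, when among the 5 of highest body cover, or when among the 5 largest differences. Genes named outside this rule were chosen after their values were seen. Alternatives were windows of 500 bp and 2 kb, an overlap of 100 bp, lists of equal length, lists of equal covered bases, each library left out, and the replicate block. The comparisons for 1 antibody, and that of OGG1 with SMARCA1, share libraries. The other 14 samples and a series-wide Orc6 list were not used here, and 0 columns of per-sample values were left unused.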

Additional observations from a re-analysis of the deposited data

Results flagged for a closer look

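The effect of siOrc6 on collagen gene body cover after H2O2 pointed in opposite directions for the antibodies. The mean difference, siOrc6 minus siGl3, was -6.56 percentage points for OGG1, with pairs at -3.79 and -9.33, and 2.33 percentage points for SMARCA1, with pairs at 0.117 and 4.55. Both pairs of one antibody lay below 0 and both of the other above it, and the difference between the antibodies was not tested. All genes went the same way, with body cover after H2O2 of 27.7% in siOrc6 and 34.9% in siGl3 for OGG1, and 4.64% in siOrc6 and 3.55% in siGl3 for SMARCA1. For SMARCA1 all siOrc6 files carry the mark of resubmission.

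Deposited windows outside the region lists also touched collagen gene ends. In the authors' deposited table of windows marked up for SMARCA1 in siOrc6 cells, 17 collagen genes had one at an end in the H2O2 table, or 38.6% beside 44.8% of all genes, and 8 in the NT table, or 18.2% beside 30.3% of all genes.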

How the results depend on the processing

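Of the alternatives to 17 results, 190 values stayed close to the main value, 31 moved and 14 reversed. Close means within the SD between replicates, or for a count of passing genes equal or nearly so. Reversed means a change of sign, and moved means a larger shift without one. The 190 include counts of 0 that stayed at 0, also where no gene could pass. Lists of equal length gave 10 of those that moved or reversed, lists of equal covered bases 12, and leaving out a library 20. With each list held to its 6992 regions of highest signal, H2O2 minus NT at collagen gene ends was -0.5 genes for OGG1 (11 with whole lists), -1.25 for SMARCA1 (10) and 0.5 for Orc6 (4), and in the body 1.96 percentage points for OGG1 (17.7) and -1.32 for SMARCA1 (1.64). The siOrc6 minus siGl3 difference for SMARCA1 was then 10.25 genes (13), OGG1 minus SMARCA1 was 5.125 genes (13.75) and 7.11 points in the body (17.5). With lists of equal covered bases (31.8 Mb), H2O2 minus NT at ends was -2.25 for OGG1, 3.5 for SMARCA1 and -3.5 for Orc6, and in the body -1.16, -0.356 and -0.738 points. The siOrc6 difference for SMARCA1 was then 5 genes and 0.546 points, and OGG1 minus SMARCA1 was -5.125 genes and 0.182 points. Beyond the shorter lists themselves, the cause was not tested.

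Collagen genes passing for OGG1 with H2O2 numbered 2, but 1 with windows of 2 kb, 0 with lists of equal length, 0 with equal covered bases and 0 with the replicate block, where 4 pairs cannot pass. For SMARCA1 with siOrc6 3 passed with lists of equal length, COL20A1, COL6A1 and COL6A2 (adjusted p = 0.0421, Fisher's exact test), beside 5.37% of all genes. For OGG1 against SMARCA1 3 passed with the replicate block. With equal covered bases 1 passed, COL7A1, which was lower in OGG1 (Fisher's exact test, adjusted p under 0.05), beside 3.04% of all genes. The smallest adjusted p of any gene in that setting was 0.00835 in Fisher's exact test. The counts of 0 for SMARCA1 with H2O2, SMARCA1 with siOrc6 and OGG1 with siOrc6 could not change with the replicate block. There too 4 pairs cannot pass.

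Leaving out each library gave 0 to 4 genes passing for OGG1 with H2O2 and 0 to 3 for OGG1 against SMARCA1. H2O2 minus NT for SMARCA1 ranged from 6.58 to 12.6 genes, the lowest without siOrc6 H2O2 replicate 2, and siOrc6 minus siGl3 for SMARCA1 from 10.1 to 15.4. For OGG1 siOrc6 minus siGl3 ranged from -3.08 to 1.58 genes and from -7.90 to 0.142 points in the body, so its direction rests on single libraries. For Orc6 with H2O2 the range was 2 to 6 genes and 1.75 to 8.93 points in the body. Depth is unknown, so genes without a region may lie below what a list could detect.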

Other observations

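The authors' deposited table of windows marked up held 12384 windows in H2O2 and 7062 in NT. COL4A1, COL4A2 and COL6A2, the genes with SMARCA1 regions in all siOrc6 and no siGl3 libraries, had such a window in both. The windows marked ns in the authors' deposited table, 31603 in H2O2 and 5330 in NT, reached 10 collagen genes in H2O2 and 6 in NT, or 22.7% and 13.6%, against 26.98% of all genes in H2O2 and 4.69% in NT. The samples compared to make these windows are not named in the labels, and the windows may rest on the libraries used above, so they are not independent of them.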
